A study of Mus musculus with 23 samples.

Results

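Fos and Jun proteins are the subunits of AP-1, and 6 of their genes were read on these arrays: Fos, Fosb, Fosl1, Jun, Junb and Jund. Their probe sets were taken by annotation, as every probe set paired with exactly 1 of these symbols. This gave 7 of 12436 non-control probe sets and 6 of 8131 genes named by a set with 1 symbol. The genes themselves were chosen with earlier results of these data known. Each gene had 1 probe set except Junb, which had 102362_i_at and 102363_r_at. Both Junb sets carry suffixes that the array maker gave to sets falling short of its usual probe selection rules. All 7 passed the filter on low values and were among the 9643 probe sets tested, Fosl1 with only 8 of 23 arrays above the filter, 4 of them with SRF-VP16.

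Arrays were hybridised with total RNA of mouse embryonic stem (ES) cells from 4 lines, each given 3 plasmids, with RNA taken 72 hours after transfection. The lines were wild-type E14 (E14wt), E99 (+/-), and E81 and E100 (each -/-). Which gene the signs +/- and -/- refer to is not named in the labels, and the titles write the +/- line as E14-99+/- and as E99-/+, which were taken as 1 line. The plasmids were an empty vector, SRFdM-VP16, which the labels call the control, and SRF-VP16, which joins serum response factor to the viral activation domain VP16. Each of the 12 groups had 2 arrays, except E100 with vector, which had 1. The labels do not say what share of the cells took up a plasmid, what drives its expression, or whether E81 and E100 are single clones. Nothing in them says that duplicates came from separate cultures, so the p-values given reflect only how far these samples spread, which may be technical. In such bulk RNA, a larger share of expressing cells and more RNA per cell cannot be told apart.

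As background, AP-1 is a dimer of basic leucine zipper proteins. Jun proteins pair with each other or with a Fos protein, whereas Fos proteins need a Jun partner to bind DNA. The dimer binds the sequence TGANTCA, and Jun paired with ATF factors prefers the longer TGACGTCA. Fos, Fosb, Jun and Junb are immediate-early genes that serum and growth factors switch on without new protein synthesis. Serum response factor binds CArG boxes, and the one upstream of Fos is a classical serum response element. Jun has instead been studied for AP-1-like and MEF2 sites close to its start, and MEF2 belongs to the same MADS-box family as serum response factor. Jund is known for steady expression, and Fosl1 for its own dependence on AP-1.

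Promoter windows of 3 genes are shown because Jun was the member that passed the test, Junb had the largest changes that did not, and Fos is the member best known for serum response. Each is the 250 bases before the annotated start in RefSeq, build GRCm38.p6, written 5′ to 3′ on the strand of the gene. The Jun window is chr4:95052223-95052472 on the minus strand, the Junb window chr8:84978749-84978998 on the minus strand, and the Fos window chr12:85473640-85473889 on the plus strand. Capitals mark matches to the motifs searched.
Jun: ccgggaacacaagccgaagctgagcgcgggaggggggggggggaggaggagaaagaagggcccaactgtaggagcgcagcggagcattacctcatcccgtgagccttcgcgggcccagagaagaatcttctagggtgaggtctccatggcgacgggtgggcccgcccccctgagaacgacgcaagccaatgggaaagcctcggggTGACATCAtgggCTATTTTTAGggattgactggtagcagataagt
Junb: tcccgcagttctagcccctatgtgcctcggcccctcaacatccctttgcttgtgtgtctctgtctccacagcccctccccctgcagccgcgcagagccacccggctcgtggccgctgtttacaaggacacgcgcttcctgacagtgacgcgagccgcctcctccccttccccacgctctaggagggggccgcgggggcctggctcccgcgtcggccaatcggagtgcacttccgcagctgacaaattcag
Fos: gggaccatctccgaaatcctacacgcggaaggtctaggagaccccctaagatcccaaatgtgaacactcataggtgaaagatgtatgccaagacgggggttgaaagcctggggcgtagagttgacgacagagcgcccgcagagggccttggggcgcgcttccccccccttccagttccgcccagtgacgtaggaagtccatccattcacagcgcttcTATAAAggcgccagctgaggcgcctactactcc

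The table of windows held 5 of the 6 members, and the motifs were searched on both strands. In Jun, TGACATCA, a variant of TGACGTCA, had its first base at -45 from the start, and CTATTTTTAG, a match to the MEF2 site, had its first base at -33. In Fos, TATAAA had its first base at -33. None of the 5 windows held TGANTCA, TGACGTCA or a CArG box, which says only that these letters are not in these 250 bases. Among 32851 windows of the same length, 2.93% held TGACATCA, 2.92% a MEF2 site, 1.47% a CArG box, 6.75% TGANTCA, 1.55% TGACGTCA and 12.4% TATAAA. A match is a description of the letters and not a bound site.

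The values are linear intensities, and many lay near the background that had been subtracted. The median of an array lay between 54 and 209, and the share of its values at or below 0 between 23.4% and 43.6%. Intensities below a floor of 58, the 40th percentile of all values, were set to 58 before the logarithm. A change from a group with every array at that floor is a lower bound, and where some arrays lay there its size depends on the floor. E81 SRFdM-VP16 replicate 1 stood apart, with the lowest median, the highest share of values at or below 0 and the weakest typical correlation with other arrays (median r 0.878). Its Gapdh 5′ over 3′ log2 ratio was also the lowest (-0.93), and the calls of the -/- comparison named here are also given without it. The number of arrays limits the precision. Pou5f1 and Sox2, which define ES cells, read from 5994 to 29982 and from 7308 to 21958 over all 23 arrays. With values below 0 counted as 0, the 3 blood markers summed to 0 on every array and the 7 fibroblast markers to at most 606.

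In the -/- lines, SRF-VP16 went with more RNA of Jun, and the other Jun genes lay higher with it too without passing the test, whereas no difference was shown for Fos and Fosb. Of the 7 member probe sets, 1 passed limma's test at an adjusted p under 0.05 when SRF-VP16 was compared with SRFdM-VP16, 4 arrays against 4. Over all probe sets 2.82% were called, 2.48% as higher. At an unadjusted p under 0.05 there were 5 member probe sets of 7, both Junb sets among them, against 13.4% of all probe sets. The median change of the 7 was 1.36 on the log2 scale, against 0.04 over all probe sets, and 6 of the 7 changes were above 0, against 53.2% of all. With 1 probe set per gene, as for the gene lists below, the median was 0.95, and 4 of 6 genes had an unadjusted p under 0.05.

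**Figure D1:**
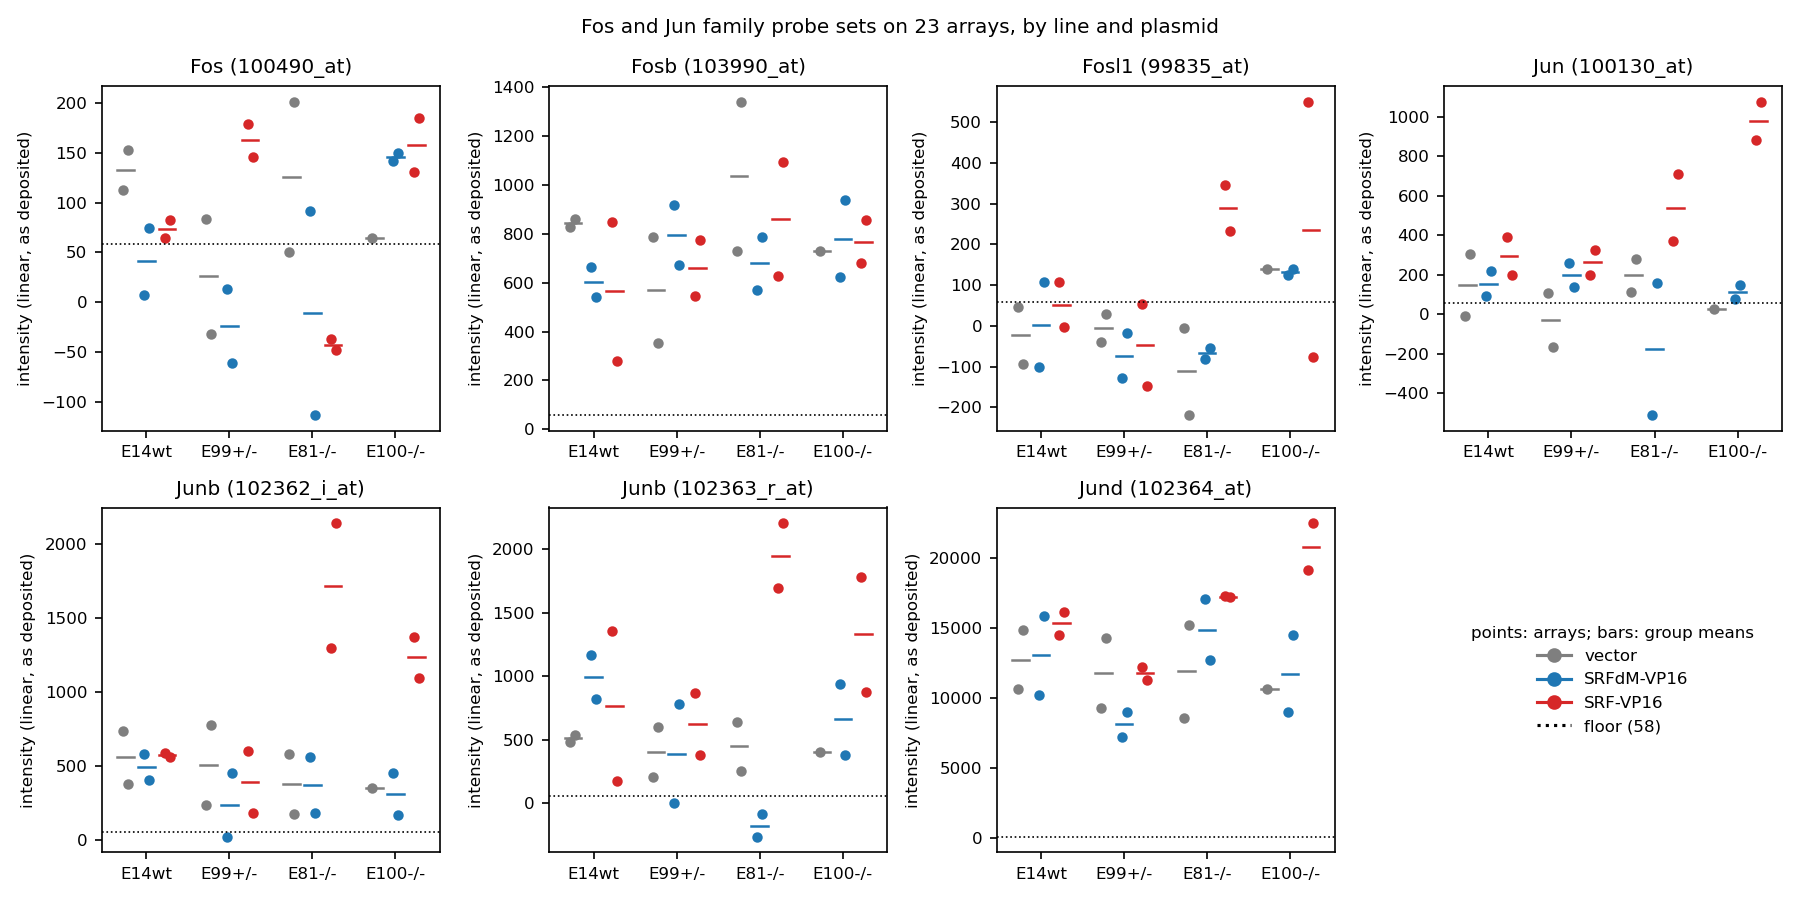
Deposited linear intensity (vertical axis, its own scale in each panel) of the 7 Fos and Jun probe sets on each array, by line (horizontal axis) and plasmid (colour). Points are arrays, short bars are group means and the dotted line is the floor of 58. For Jun, Junb and Jund the E81 and E100 arrays with SRF-VP16 sit high, and in Jun they read from 370 to 1075. The lowest of these arrays has 3 other arrays above it for Junb 102363_r_at and 1 for Jun.

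Jun, the subunit that gave the family its name, is the strongest transactivator among the Jun proteins. With SRF-VP16 its probe set 100130_at read 370 and 707 in E81 and 881 and 1075 in E100. With SRFdM-VP16 it read -510 and 157 in E81 and 76 and 148 in E100. All 4 arrays with SRF-VP16 lay above all 4 with SRFdM-VP16, and the -510 belonged to the array that stood apart. Jun rose 7.01-fold (log2 change 2.81, SE 0.58, 95% interval 1.55 to 4.07, limma adjusted p = 0.0181), from a mean of -32.2 ± 321 to 758.2 ± 299 (SD, n = 4 each). Groups that do not overlap in this direction were found for 4.93% of all probe sets. Without E81 SRFdM-VP16 replicate 1 the Jun change was 2.45 and no longer passed (adjusted p = 0.0784). The call was also lost without E100 SRFdM-VP16 replicate 1 (adjusted p = 0.0799), E81 SRF-VP16 replicate 2 (0.08) or E100 SRF-VP16 replicate 2 (0.0506).

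The vector arrays of the same lines give a second background for Jun. With vector, Jun read 113 and 282 in E81 and 29 in E100, below all 4 arrays with SRF-VP16. With vector as the control the change was 2.79 (SE 0.65, limma adjusted p = 0.0391). This comparison uses the same SRF-VP16 arrays as the one before, so it is no separate test of them. In E100 the change was 3.20 (SE 0.83) against SRFdM-VP16 and 4.07 (SE 1.01) against vector, and in E81 it was 2.42 (SE 0.83) and 1.52 (SE 0.83). None of these line values passed alone (adjusted p from 0.0885 to 0.537), and the difference between the lines did not pass (-0.78, SE 1.17, adjusted p = 0.795).

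Junb, a weaker activator that can hold Jun in check, was read by both of its probe sets. With SRF-VP16, 102362_i_at read 1296 and 2139 in E81 and 1371 and 1097 in E100. With SRFdM-VP16 it read 564 and 181 in E81 and 450 and 170 in E100. The groups did not overlap, yet the change of 2.27 (SE 0.69, 95% interval 0.77 to 3.76) did not pass limma's test (adjusted p = 0.124). The vector arrays of these lines read 582, 177 and 354, all below the 4 arrays with SRF-VP16. Without E81 SRFdM-VP16 replicate 1 the changes were 2.68 (adjusted p = 0.119) for this set and 3.06 (adjusted p = 0.14) for 102363_r_at.

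The other Junb probe set, 102363_r_at, read 1692 and 2206 in E81 and 1785 and 874 in E100 with SRF-VP16. With SRFdM-VP16 it read -266 and -89 in E81, both at the floor, and 942 and 382 in E100. One SRF-VP16 array, E100 replicate 2, lay below 1 control array, so the groups overlapped. The change was 3.06 (SE 0.79, 95% interval 1.36 to 4.75) and missed the threshold (limma adjusted p = 0.0581). In E81 it was at least 5.06 (SE 1.11, adjusted p = 0.0506), and in E100 it was 1.06 (SE 1.11, adjusted p = 0.775). With vector as the control this set gave 1.95 (SE 0.88, adjusted p = 0.295). Its E81 vector arrays read 637 and 254, well above the floor at which both E81 SRFdM-VP16 arrays lay.

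Jund, the broadly expressed Jun that can oppose growth, was bright on every array, from 7209 to 22496. With SRF-VP16 it read 17270 and 17203 in E81 and 19110 and 22496 in E100. With SRFdM-VP16 it read 17059 and 12677 in E81 and 8959 and 14467 in E100. The groups did not overlap, by a margin of 17203 against 17059, and the nearest control was the array that stood apart. The change was 0.55 (SE 0.23, 95% interval 0.04 to 1.05) and did not pass (limma adjusted p = 0.312). It shrank to 0.16 when each array was divided by its median, a scaling under which the typical probe set read -0.16 in place of 0.04.

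The -/- arrays with SRF-VP16 were then set against all 19 other arrays of the study. For 102362_i_at of Junb the lowest of the 4 read 1097 and the highest of the others 774, in E99 with vector. For Jund the same values were 17203 and 17059. For Jun the lowest was 370, with 1 other array above it, E14wt SRF-VP16 replicate 1 at 391. For 102363_r_at of Junb 3 other arrays lay above the lowest of the 4. Thus 2 of 7 member probe sets had these 4 arrays on top, against 1.55% of all probe sets. The 4 arrays lay above the 3 vector arrays of their own lines for Jun, both Junb sets and Jund. These were 4 of 7 member probe sets, with Junb counted by both of its sets, against 4.93% of all probe sets.

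For single values, an exact two-sided permutation test over the 8 arrays of the -/- comparison can give no p under 0.0286. It gave 0.0286 for Jun, Junb 102362_i_at and Jund, and 0.0571 for Junb 102363_r_at. It gave 0.171 for Fosl1, 0.514 for Fosb and 0.829 for Fos. The arrays were shuffled without keeping E81 and E100 apart, so differences between the lines are not allowed for. Groups that do not overlap always give 0.0286, so that value adds nothing to the non-overlap already described. These exact permutation values are not adjusted for the 7 member probe sets.

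Fosl1, or Fra-1, a Fos protein that lacks the strong activation domain of Fos, was near the floor on most arrays, with 15 of 23 at or below it. With SRF-VP16 it read 345 and 233 in E81 and 550 and -77 in E100. With SRFdM-VP16 it read -80 and -55 in E81 and 125 and 140 in E100. Both E81 arrays and E100 replicate 1 were higher than every other array of the study, while E100 replicate 2 lay at the floor. The change was 1.36 (SE 0.49, limma adjusted p = 0.223), at least 2.29 in E81 (adjusted p = 0.152) and 0.43 in E100 (adjusted p = 0.894). Without E100 SRF-VP16 replicate 2 the change was 2.17 and passed (adjusted p = 0.00031). That array was singled out by its value for this gene, so leaving it out raises the change by construction.

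Fos itself, the partner that gives AP-1 dimers stability, was dim, from -113 to 201 over all arrays. With SRF-VP16 it read -37 and -48 in E81 and 131 and 185 in E100. With SRFdM-VP16 it read 92 and -113 in E81 and 142 and 150 in E100. The arrays sorted by line more than by plasmid, and the change of -0.12 (SE 0.32, 95% interval -0.80 to 0.56, limma adjusted p = 0.949) did not pass. Against vector Fos gave -0.90 (SE 0.45, adjusted p = 0.493) in E81, where both SRF-VP16 arrays were at the floor, and 1.28 (SE 0.55, adjusted p = 0.408) in E100. Neither passed. RNA was taken at 1 time, so earlier levels of Fos were not measured.

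Fosb, a Fos protein of growth-factor and neuronal responses, read from 281 to 1339, above the floor on every array. In the -/- lines it read 625, 1093, 678 and 855 with SRF-VP16, against 570, 787, 622 and 936 with SRFdM-VP16. The groups lay over each other, and the change was 0.15 (SE 0.38, 95% interval -0.66 to 0.96, limma adjusted p = 0.944). A change beyond about 1 log2 unit in either direction thus lay outside the interval.

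In wild-type E14 cells, 2 arrays against 2, no member was called by limma, and none had an unadjusted p under 0.05. Over all probe sets 0.0207% were called. Jun read 391 and 201 with SRF-VP16 against 92 and 218 with SRFdM-VP16 and -6.5 and 305 with vector, and its groups overlapped. The Jun change was 0.98 (SE 0.83, 95% interval -0.80 to 2.77, adjusted p = 1). Junb 102362_i_at read 585 and 562 against 582 and 405 (0.24, SE 0.98), and 102363_r_at 1356 and 176 against 1163 and 817 (-0.997, SE 1.11). Jund read 14490 and 16169 against 10227 and 15871 (0.27, SE 0.33). Fos (0.14), Fosb (-0.30) and Fosl1 (0.01) did not pass either, each with an adjusted p of 1. Against vector, Fos gave -0.85 (SE 0.45, adjusted p = 0.823) and Fosb -0.79 (SE 0.53, adjusted p = 0.888) in this line.

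In E99 (+/-), again 2 arrays against 2, 0 members were called by limma, against 0.0415% of all probe sets. At an unadjusted p under 0.05 there was 1 member, against 4.48% of all probe sets. That member was Fos. It read 179 and 146 with SRF-VP16, whereas both SRFdM-VP16 arrays, at -61 and 13, lay under the floor. The change was at least 1.48 (SE 0.45, adjusted p = 0.592), and 1.21 (SE 0.45, adjusted p = 1) against the vector arrays, which read -32 and 84. Fos and Jund were the members whose SRF-VP16 and SRFdM-VP16 arrays did not overlap, which in this line held for 29.5% of all probe sets in the same direction. Both E99 SRFdM-VP16 arrays had more values at or below 0 (38.3% and 34.0%) than the SRF-VP16 arrays (25.2% and 25.6%), and the part of this in the Fos value was not tested.

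The other members in E99 gave no clear difference. Jun read 200 and 327 with SRF-VP16 and 138 and 261 with SRFdM-VP16 (0.43, SE 0.83). Jund read 12235 and 11253 against 8991 and 7209 (0.54, SE 0.33), but its vector arrays, at 14269 and 9253, spanned both groups. Junb 102362_i_at read 604 and 186 against 456 and 23, and 102363_r_at 868 and 378 against 778 and -2. Fosb gave -0.27 (SE 0.53), and all 4 Fosl1 arrays were at the floor.

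**Figure D2:**
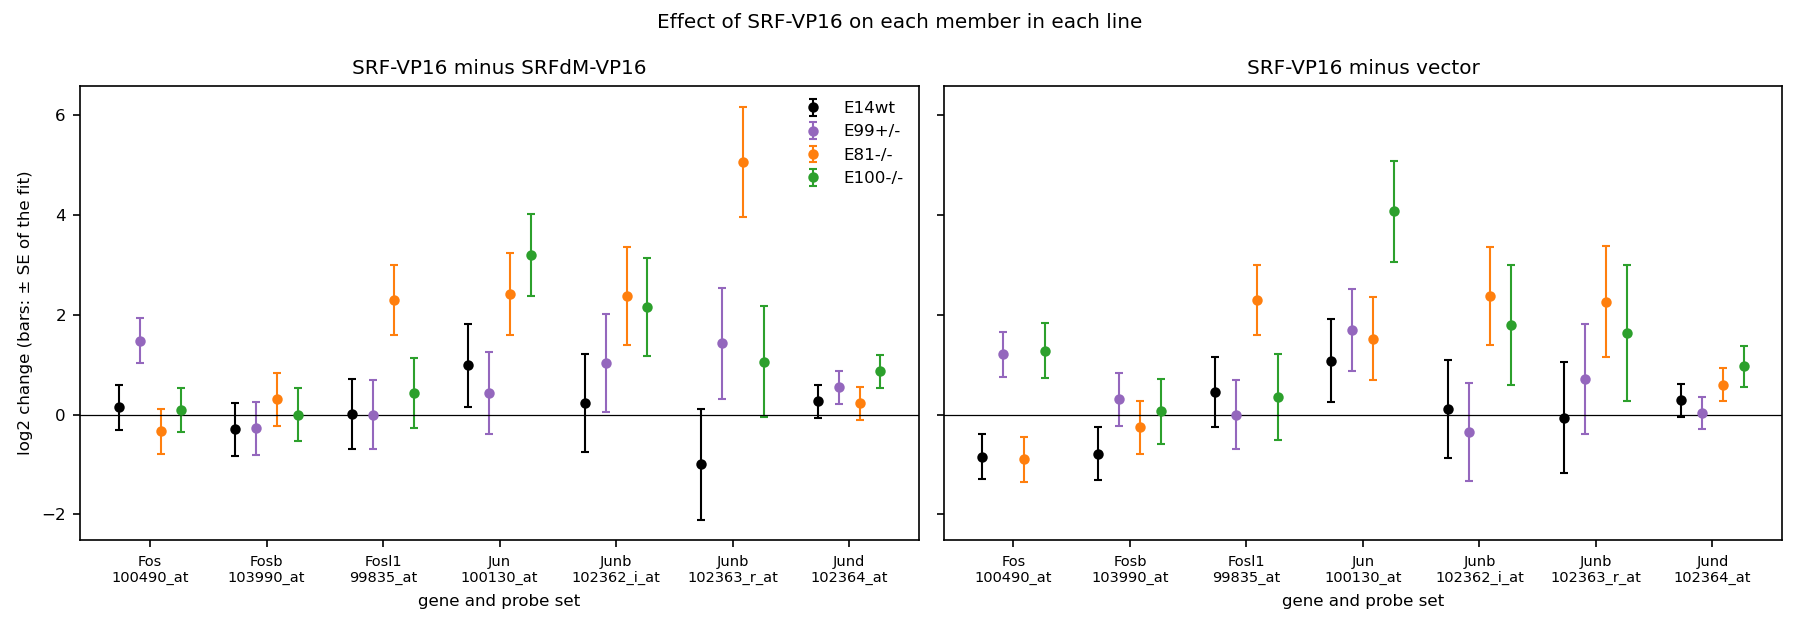
Log2 change (vertical axis) of each Fos and Jun probe set (horizontal axis) with SRF-VP16 in each line, against SRFdM-VP16 on the left and against vector on the right; points are estimates of the limma fit and bars are ± SE. For Jun the estimate is highest in E100 (3.20 and 4.07), and for Fosb all 8 estimates lie between -0.79 and 0.30.

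Whether the effect itself differed between the -/- lines and E14wt was tested as an interaction. No member passed limma's test, against 0.083% of all probe sets called. At an unadjusted p under 0.05 there was 1 member, against 5.32% of all probe sets. Junb 102363_r_at had the largest difference among the members (4.05, SE 1.36, limma adjusted p = 0.646). The differences of Junb 102362_i_at (2.03, SE 1.2) and Jun (1.82, SE 1.01) had intervals that held 0, as had those of Fosl1 (1.35), Fosb (0.45), Jund (0.28) and Fos (-0.26). With vector as the control the differences were 2.01 (SE 1.42) for Junb 102363_r_at, 1.97 (SE 1.25) for 102362_i_at and 1.72 (SE 1.05) for Jun, with adjusted p from 0.948 to 0.987. These tests did not show that the response of Jun or Junb depended on genotype.

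The lines E81 and E100 were compared with each other in the same way. No member passed limma's test, against 0.145% of all probe sets called. At an unadjusted p under 0.05 there was 1 member, against 10.8% of all probe sets. The SRF-VP16 effect on Junb 102363_r_at was 4 log2 units larger in E81 (SE 1.57, adjusted p = 0.432), where its SRFdM-VP16 arrays were at the floor. With vector as the control the difference was 0.62 (SE 1.76) for this set and -2.55 (SE 1.31) for Jun, each with an adjusted p of 1. The median of all probe sets was itself shifted by 0.52 in this comparison, and by 0.00 after quantile normalization. Fosl1 differed by 1.86 (SE 0.99, adjusted p = 0.494) and by 3.48 (adjusted p = 0.00397) without E100 SRF-VP16 replicate 1, which leaves E100 the array at the floor.

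Averaged over the 4 lines, 8 arrays against 8, 1 member probe set of 7 was called, against 1.96% of all probe sets. This was Jun, which rose 3.38-fold (1.76, SE 0.41, limma adjusted p = 0.0465). The Jun value lay close to the threshold and was past it in 12 of 32 other settings. Without E81 SRFdM-VP16 replicate 1 it was 1.58 (adjusted p = 0.106). Both Junb sets (1.45, adjusted p = 0.18, and 1.64, adjusted p = 0.185) and Jund (0.48, adjusted p = 0.197) did not pass, and neither did Fosl1 (0.68), Fos (0.35) or Fosb (-0.07). The -/- arrays are part of this average, so it repeats what they showed.

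The control plasmid and the genotype were examined without SRF-VP16. For SRFdM-VP16 against vector, no member was called or had an unadjusted p under 0.05, with 0.799% of all probe sets called. Changes ran from -0.50 for Junb 102363_r_at to 0.33 for Jun, beside a median of -0.21 over all probe sets. For -/- against E14wt with the control plasmids, again 0 members were called by limma and 0 had an unadjusted p under 0.05, with 0.083% of all probe sets called. Junb 102363_r_at gave -1.37 (SE 0.71, adjusted p = 0.848), Junb 102362_i_at -0.68 (SE 0.63) and Jun -0.44 (SE 0.53). Fos (-0.01, SE 0.29), Fosb (0.13), Jund (-0.08) and Fosl1 (0.39) had intervals that held 0 as well.

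Across the 12 groups, the level of Jun ran from -176.5 in E81 with SRFdM-VP16 to 978 ± 137 (SD, n = 2) in E100 with SRF-VP16. E81 with SRF-VP16 came next at 538.5 ± 238, then E14wt with SRF-VP16 at 296 ± 134 and E99 with SRF-VP16 at 263.5 ± 89.8. The mean ± SD ranges of E81 and E14wt overlapped, as did those of E14wt, E99 and the highest control groups at 199.5 ± 87 and 197.5 ± 120. For Junb 102362_i_at the order began with E81 and E100 with SRF-VP16 (1718 ± 596 and 1234 ± 194), whose spreads overlapped, and the third group, E14wt with SRF-VP16, lay apart at 573.5 ± 16.3. For 102363_r_at E81 and E100 with SRF-VP16 (1949 ± 363 and 1330 ± 644) led as well, but the third, E14wt with SRFdM-VP16 at 990 ± 245, lay within the spread of E100. Jund was highest in E100 with SRF-VP16 (20800 ± 2390) and in E81 with SRF-VP16 (17240 ± 47.4), ahead of E14wt with SRF-VP16 (15330 ± 1190), each apart from the next by more than the SDs. The group after these, E81 with SRFdM-VP16 at 14870 ± 3100, overlapped with both E81 and E14wt with SRF-VP16. Fosb had its highest mean with vector in E81 (1035 ± 430), and Fos with SRF-VP16 in E99 (162.5 ± 23.3).

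The members' profiles over the 12 group means of log2 intensity were compared as a description. All points share the same arrays and backgrounds. Junb 102362_i_at and Jund had a Pearson r of 0.874, the highest between any pair of members, and the Junb sets had 0.699 with each other. Jun had 0.666 with Junb 102362_i_at and 0.659 with Jund. Fos and Fosb had at most 0.276 with any other member. Among 5608 probe sets of other genes (5607 for Junb) whose group means spanned at least 1 log2 unit, those most like Jun were Pawr (0.946), by a set that can cross-hybridise, the biopterin-synthesis enzyme Gch1 (0.926) and Crybg1 (0.912). Those most like Jund were Zfp36, which destabilises AU-rich messages (0.934), Nab1, a corepressor of Egr factors (0.932), and the integrin subunit Itgav (0.913, cross-hybridising set). Those most like Junb 102362_i_at were the co-chaperone Dnajb6 (0.940), the glypican Gpc1 (0.932) and Dlgap4 (0.931). Those most like 102363_r_at were other genes, Mlec (0.909), Smpd1 and Gabarap (each 0.897). Nearest to Fosl1 were Zfp787 (0.954), Adam10 (0.911) and Psap (0.889), to Fos Cnih4 (0.915), Ikbkb (0.908) and Crat (0.905), and to Fosb Plxnb2 (0.916), Slc38a2 (0.915) and Macroh2a1 (0.914).

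Other genes of the pathway were taken from lists and read in the -/- comparison, by 1 probe set per gene. In that comparison 2.82% of all probe sets were called and 13.4% had an unadjusted p under 0.05, with a median change of 0.04. Of 26 other listed AP-1 and bZIP factors, not all of them partners of Fos or Jun, 20 were tested. Limma called 0, with 1 at an unadjusted p under 0.05. Their median change was 0.07. Cebpb, a C/EBP factor that can dimerise with Fos and Jun, had the largest value (3.09, SE 1.01, adjusted p = 0.159), and Fosl2, the remaining Fos relative, gave 0.75 (SE 0.44, adjusted p = 0.532). The small Maf protein Mafk gave at least 0.93 (adjusted p = 0.474), Batf -0.82 (adjusted p = 0.525) and Maf -0.23 (adjusted p = 0.423).

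Of 43 kinases and regulators upstream of AP-1, 27 were tested, with a median change of 0.19. Of them 1 was called higher and 0 lower, against 2.82% of all probe sets called. The one was Dusp2, a nuclear phosphatase that switches off MAP kinases, which rose 13.7-fold (3.78, SE 0.57, limma adjusted p = 0.00274), from 433.5 ± 249 to 5556 ± 2140 (SD, n = 4 each). Its relative Dusp1 gave 1.27 (adjusted p = 0.0838), and Dusp6 gave 0.24. Of the kinases that phosphorylate Jun, Mapk8 gave 0.66 (adjusted p = 0.752), Mapk9 0.08 and Mapk10 -0.78 (adjusted p = 0.398). The ERK activator Map2k1 gave 0.70 (adjusted p = 0.404), and the serum response factor partners Elk1, Elk4 and Mrtfa gave -0.57, 0.13 and -0.37, none past the test.

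Of 33 genes listed as AP-1 targets from general knowledge, 24 were tested, with a median change of 0.48. Of them 6 were called higher and 0 lower, against 2.82% of all probe sets called. Edn1, the vasoconstrictor endothelin, rose (4.97, limma adjusted p = 0.000762), although its other probe set gave 1.52 (adjusted p = 0.416). Hbegf, a membrane-anchored EGF receptor ligand, rose 4.18-fold (2.06, adjusted p = 0.00149), and Timp1, an inhibitor of matrix metalloproteinases, rose 3.15-fold (1.66, adjusted p = 0.00171). The simple-epithelial keratin Krt8 rose (3.61, adjusted p = 0.00366), as did its partner Krt18, and so did the urokinase receptor Plaur (2.18, adjusted p = 0.00955). Many of these genes also have other regulators, and none was tested for AP-1 binding here.

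Of 37 other immediate-early genes, 29 were tested, with a median change of 0.72. Of them 4 were called higher and 1 lower, against 2.82% of all probe sets called. The zinc-finger factors Egr2 (3.70, limma adjusted p = 6.78e-06) and Egr1 (6.11, adjusted p = 1.48e-05) rose, as did the matricellular Ccn1 (4.54, adjusted p = 0.00603) and the antiproliferative Tob1 (1.55, adjusted p = 0.0428). Klf2 fell by 2.43 (adjusted p = 0.002). Nr4a2 was not called by the set that represented it, but another of its probe sets was higher (0.52, limma adjusted p = 0.0212). Without E81 SRFdM-VP16 replicate 1, the 12 genes called in the regulator, target and immediate-early lists kept their calls except Tob1 (1.08, adjusted p = 0.118). In E14wt and in E99 no gene of these 4 lists was called by limma. At an unadjusted p under 0.05 there were 0 bZIP factors, 0 regulators, 2 targets and 2 immediate-early genes in E14wt, and 0, 1, 5 and 3 in E99. The share of all probe sets at that level was 3.59% in E14wt and 4.48% in E99. The interaction between -/- and E14wt called 1 of them, Egr2 (5.32, SE 0.47, adjusted p = 0.000138), and no Fos or Jun member. This difference exceeds the Egr2 change of 3.70 in the -/- lines, because the estimate in E14wt lay below 0, without a call there.

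**Figure D3:**
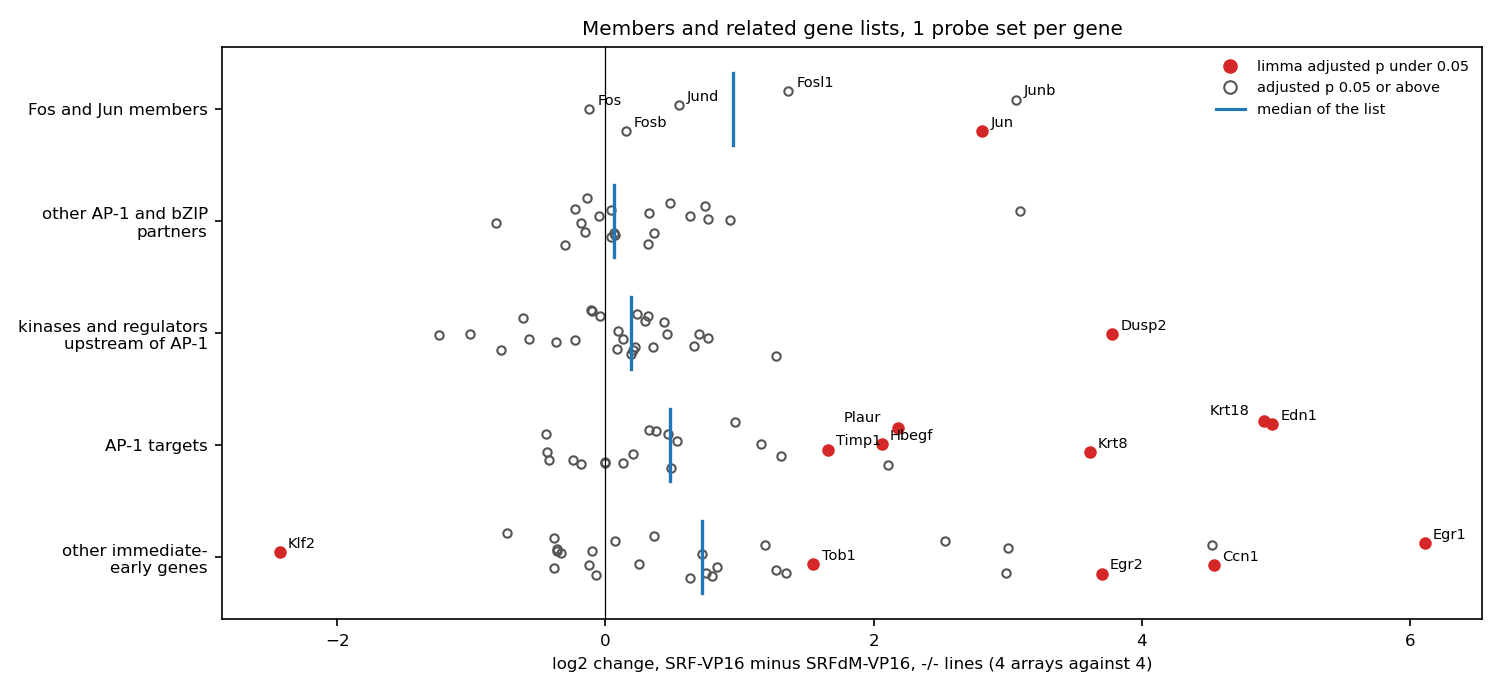
Log2 change in the -/- lines, SRF-VP16 minus SRFdM-VP16 (horizontal axis), for the Fos and Jun members and 4 related gene lists (vertical axis), 1 probe set per gene; filled points passed limma's test at an adjusted p under 0.05 and vertical bars are list medians. Jun is the only filled member, and the target and immediate-early lists hold 6 and 5 filled genes.

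Markers of other cell states were read in the same arrays. In the -/- lines the ranges of their sums overlapped between SRF-VP16 and SRFdM-VP16, for ES cell markers only through the array that stood apart. Against vector, the sums of ES cell and of primitive endoderm markers did not overlap. The summed intensity of 13 ES cell markers, with values below 0 counted as 0, was 42407 to 70113 in the 4 -/- arrays with SRF-VP16, 58770 to 125751 with SRFdM-VP16 and 85459 to 120815 with vector. The 58770 was E81 SRFdM-VP16 replicate 1, and the other SRFdM-VP16 arrays of these lines summed to 93701 to 125751. The 7 primitive endoderm markers summed to 6818 to 13324, 2613 to 7291 and 2167 to 6351 in the same order. Limma called 0 of them, and 4 had an unadjusted p under 0.05, against 13.4% of all probe sets. They were led by Sparc (2.11, adjusted p = 0.0513), which is also on the target list. Sparc read from 644 to 11150 over all arrays, whereas no other of the 7 read above 1994. Sox17 and Afp lay at or below the floor on 19 and 21 arrays of the study. The median change of the 7 was 0.19, so the sums do not show a rise of the whole set. The 5 trophoblast markers summed to 1578 to 3612, 40 to 3577 and 247 to 2821, and the keratin Krt7 among them was called higher (at least 4.30, limma adjusted p = 8.32e-05). Of the ES cell markers 1 of 13 was called lower, Fgf4 (-1.15, adjusted p = 0.0117). Without E81 SRFdM-VP16 replicate 1, Krt7 and Fgf4 kept their calls, and the ES cell markers Zfp42 (-1.40, adjusted p = 0.0411), Tdgf1 (-1.28, adjusted p = 0.0343) and Nr0b1 (-1.48, adjusted p = 0.0454) were called lower too. The part of these differences in the values of Jun, Junb and Jund was not tested. Fibroblast markers summed to 192 to 380 with SRF-VP16 and 106 to 442 with SRFdM-VP16, with 0 called by limma and 0 at an unadjusted p under 0.05 among the 6 tested.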

How the data were processed

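The authors deposited 1 linear intensity per probe set and array for 23 arrays of mouse ES cells. Which array software, background correction and scaling they used is not given in the sources used here. Values were used as deposited, because the 255 probe sets above 10000 had array ratios of 0.942 to 1.04 to the median array. Of 12502 probe sets 66 controls were left out, and 9643 lay above the 40th percentile of their own array in at least 2 arrays. Intensities under 58 were set to 58 before log2. Of the probe sets without controls, 10141 had 1 gene symbol, 362 several and 1933 none, and 10122 symbols matched RefSeq (GRCm38.p6). Groups came from the sample titles.

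limma 3.58.1 in R 4.3.3 fitted 12 group means with an intensity trend and 11 residual degrees of freedom. The spread was pooled over groups, so a lone array is taken to vary as duplicates do elsewhere. Two-sided tests had Benjamini-Hochberg adjustment at 5% over all probe sets tested, and the procedure was tested on simulated data. Fold changes are on the floored log2 scale.

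All member probe sets are named, and of each list the up to 4 genes with the smallest adjusted p in the -/- comparison. For likeness, the 3 probe sets of other genes with the highest r are named for each member. Fosl2, Dusp6, Mapk8, Mapk9, Elk1, Elk4, Mrtfa, Krt18, Plaur, Tob1 and the markers Fgf4, Sparc and Krt7 were named for their roles or values after these were seen. Several probe sets of a listed gene were represented by the one with the highest mean. Members, lists and alternatives were chosen with earlier results of these data known. Alternatives were quantile normalization, division by array medians, other filters and floors, an inverse hyperbolic sine, a replicate block, vector as the control, each -/- line alone, only the arrays of a comparison, and leaving out arrays. Promoter sequences are from RefSeq (GRCm38.p6).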

Additional observations from a re-analysis of the deposited data

How the results depend on the processing

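In the -/- comparison of SRF-VP16 with SRFdM-VP16 the count of Fos and Jun probe sets called was 1, and 2 under quantile normalization, a filter at the 60th percentile or a floor at the 60th percentile. It was 0 in E81 alone, in E100 alone and in a fit of only these arrays, and 0 to 2 when single arrays were left out. The second call was Junb in each case. Jun kept its call in 27 of 35 settings, with changes from 1.24 to 4.03. Under the inverse hyperbolic sine Jun lost its call (adjusted p = 0.108) and Junb 102363_r_at gained one (0.00604). Over the 4 lines the count of 1 became 0 with no filter on low values and 0 with a replicate block within lines, and was 0 or 1 when single arrays were left out. Under the inverse hyperbolic sine the 1 call over the 4 lines was Junb 102363_r_at (limma adjusted p = 0.031), and Jun did not pass (0.181). A count of 1 thus did not always stand for Jun. In the block fit the -/- count stayed at 1. The replicate numbers were not taken to pair the samples over all lines, where same-numbered arrays had correlations from -0.349 to 0.417, over 0.1 in 6 of 10 pairs. In the -/- lines all 4 pairs were over 0.1 (0.248 to 0.306). The interaction between -/- and E14wt gave 0 members, and 1 (Fosl1) without E100 SRF-VP16 replicate 2, a range of 0 to 1. The difference between E81 and E100 gave 0, and 1 (Fosl1) without E100 SRF-VP16 replicate 1, again 0 to 1. In E14wt, in E99, for SRFdM-VP16 against vector and for -/- against E14wt the count was 0 in every setting run. The comparisons with vector could not be run without the only E100 vector array. Where a call was gained or lost and no array was removed, the cause was not tested. Signal over background limits Fos and Fosl1, which lay at or below the floor on 8 and 15 of 23 arrays. Among all probe sets, the calls of the -/- comparison ran from 97 to 514 around 272.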
